A study of Callithrix jacchus and Rattus norvegicus and Loxodonta africana with 31 samples.

Results

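The natriuretic peptide system was described through 7 genes: the hormones Nppa, Nppb and Nppc, the receptors Npr1, Npr2 and Npr3, and Corin, a protease that activates the product of Nppa. The genes were chosen by name, ignoring case, in the expression tables of 2 species, the common marmoset, a New World monkey (19681 genes), and the rat (20486 genes). All 7 genes were found in both species. In the rat all 7 carried the symbol, and in the marmoset 3 did (Npr1, Npr3 and Corin), while 4 were found through their Ensembl gene IDs. The rat spelling is used below for both species.

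Nppa encodes atrial natriuretic peptide and Nppb encodes B-type natriuretic peptide, hormones that heart muscle releases when it is stretched and that make the kidney excrete salt and vessels relax. Both bind NPR1, a receptor whose inner part makes cyclic GMP, whereas C-type natriuretic peptide, the product of Nppc, acts mostly near its source through NPR2, a receptor of the same build. NPR3 binds all of these peptides and removes them from circulation. Corin is known from heart muscle, where it cuts the precursor of atrial natriuretic peptide. The comparison of interest is therefore where the hormones are transcribed and where their receptors are.

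The series holds 31 samples made to study Y-linked genes of mammals, of which 14 were from the marmoset and 12 from the rat. For each species the table had 1 male and 1 female column for heart, kidney, liver and brain, 1 ovary column and 1 testis column, all from polyadenylated RNA. The labels give 1 male and 1 female animal per species for these tissues and name no strain, age or treatment. Each tissue is therefore 2 columns, called libraries below, from 2 animals of different sex. Every p-value below measures only the spread between such libraries. The 4 brain samples of each species were frontal cortex and cerebellum, and the tables name a column only "brain". A brain column may thus stand for more than 1 sample, which the labels do not settle. The marmoset testis column is the authors' single value for 3 samples from 2 animals, so it is given without SD or n. The unit is FPKM, a read count scaled by the length of the transcript and the size of the library.

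Marker lists were checked against the tissue labels. Kidney tubule genes summed to 3691 and 1521 FPKM in the male and female marmoset kidneys and to 2935 and 2264 FPKM in the rat kidneys. Hepatocyte genes summed to 10119 and 23648 FPKM in the marmoset livers and to 47502 and 30724 FPKM in the rat livers, although the albumin gene was listed at 0 in all 4. SERPINA1, 1 of the hepatocyte genes summed, was listed at 0 in the male and at 13492 FPKM in the female marmoset liver. Both brain columns of each species held cortical and cerebellar markers. Granulosa markers, 4 of 6 in the marmoset table, summed to 58.8 FPKM in the marmoset ovary and to 67.0 FPKM in the female marmoset liver. Of 4 germ cell markers of the testis, 2 were in the marmoset table, and these summed to 0.224 FPKM in the marmoset testis, whereas all 4 summed to 13015 FPKM in the rat testis. The 10 highest genes took between 3.45% and 30.6% of the summed FPKM of a marmoset library and between 21.1% and 83.3% of a rat library. Read depth is unknown, because the FPKM values did not fall on steps of whole reads, so no counting interval is given.

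The 2 marmoset hearts stood apart from each other in some markers of heart chambers. The atrial genes MYL7, MYL4 and BMP10, the 3 of 4 listed atrial markers in the table, summed to 3852 FPKM in the male heart and 566 FPKM in the female heart. Most of both sums was MYL7, at 3530 and 414 FPKM, while MYL4 stood at 316 and 152 FPKM. MYH7, the beta-myosin heavy chain of ventricular muscle, was listed at 0 in the male heart and at 1044 FPKM in the female heart. A listed 0 need not mean absence here, since albumin was listed at 0 in the livers. IRX4, a ventricular transcription factor, went the other way, at 3.56 FPKM in the male and 1.28 FPKM in the female heart. Heart muscle genes of any chamber (4 of 5 in the table) were high in both, at 8859 and 4970 FPKM. In rat hearts the 4 atrial markers summed to only 17.3 FPKM (male) and 21.2 FPKM (female), with BMP10 listed at 0 in both, and the 4 ventricular markers to 51028 and 31610 FPKM. The labels do not say which part of a heart was sampled.

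The plot of levels shows a sharp contrast: Nppa and Nppb were heart genes in both species, while Npr1 was at 0.865 FPKM or more in every column. The other receptors were less evenly spread. Npr2 was at 0.211 to 0.450 FPKM in rat liver and testis, and Npr3 at 0 to 0.103 FPKM in marmoset liver and brain.

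**Figure D1:**
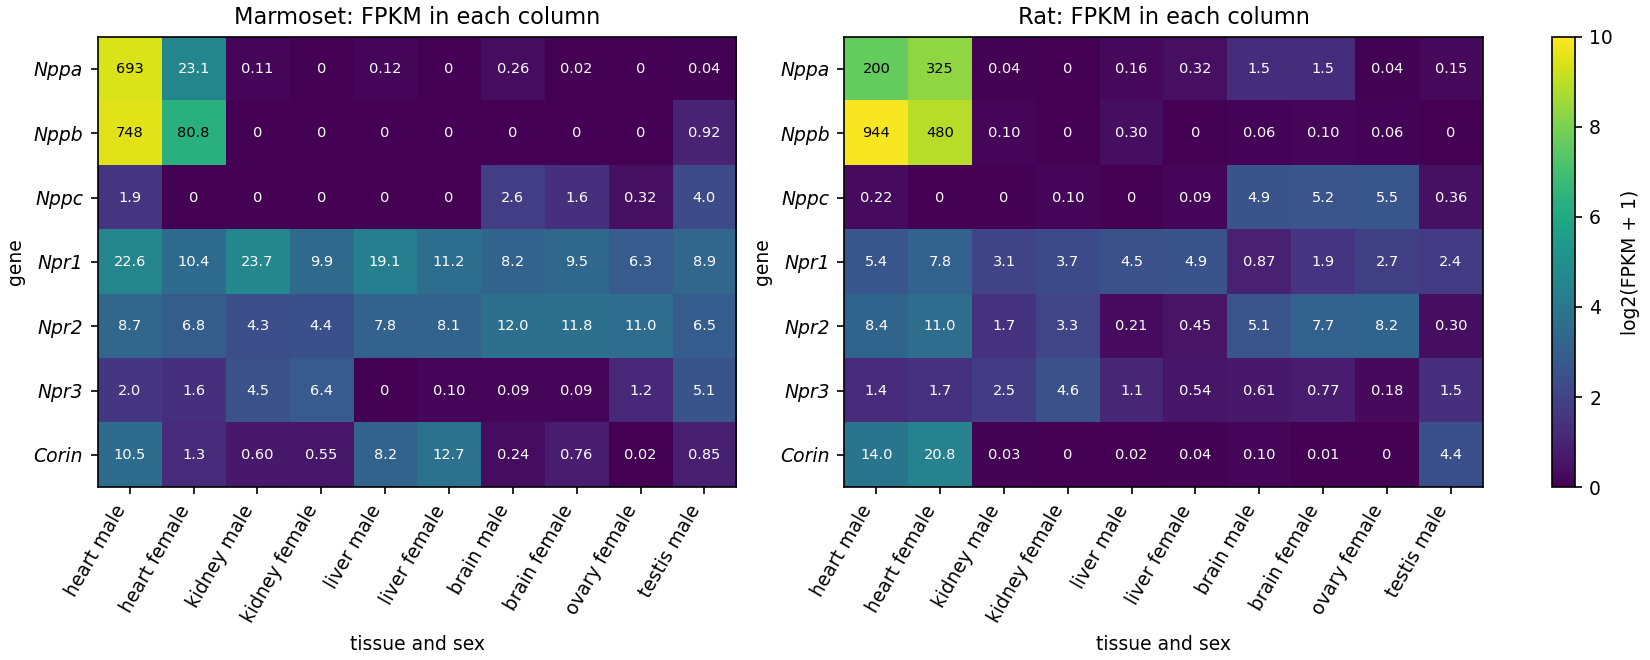
FPKM of the 7 genes (rows) in each column of the marmoset table (left) and the rat table (right); colour gives log2(FPKM + 1) and the printed number gives FPKM. Nppa and Nppb are at 23.1 FPKM or more in all 4 heart libraries and at 1.51 FPKM or less in all others, whereas Npr1 and Npr2 are present in most columns.

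Nppa stood at 693 FPKM in the male marmoset heart and 23.1 FPKM in the female marmoset heart, against 0 to 0.262 FPKM in the 6 kidney, liver and brain libraries. The rat hearts had 199.8 FPKM (male) and 325 FPKM (female), against 0 to 1.51 FPKM in the other 6 somatic libraries. Heart and other libraries did not overlap in either species, and in the rat the female heart was the higher, in the marmoset the male. Set against the mean of the other 3 tissues on the log2(FPKM + 1) scale, Nppa was higher in heart by 6.90 ± 1.13 in the marmoset (limma, SE, adjusted p = 0.00576) and by 7.45 ± 0.23 in the rat (adjusted p = 1.93e-06). A gene is said below to pass, to be higher or to be lower when its adjusted p was under 0.05 and its change was at least 1 on this scale. Genes entered the fit on reaching 1 FPKM in 2 somatic libraries. Marmoset Nppa and Nppb and rat Nppb and Corin did so only through the hearts, and Nppc in both species only with the brain columns. For these genes the filter used the values that were tested, so their p-values add no separate support. The 2 marmoset hearts differed 29.9-fold. Without the male heart the marmoset change was 4.48, and without the female heart it was 9.33; these are values of 1 heart each, from fits that kept genes with 1 FPKM in 1 library, and are given without a test.

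Nppb was more abundant still than Nppa in each of the 4 hearts. The marmoset hearts held 748 FPKM (male) and 80.8 FPKM (female), and Nppb was listed at 0 in all 6 kidney, liver and brain libraries, so no fold is given. Heart passed (limma, adjusted p = 0.000921), in a fit that Nppb entered only through the hearts. In rat hearts it reached 944 FPKM (male) and 480.1 FPKM (female), against 0 to 0.298 FPKM in the other somatic libraries, a change of 9.28 ± 0.28 (adjusted p = 1.91e-06). Every heart library was above every other library in both species. Over Nppa, its FPKM was 1.08-fold (male) and 3.49-fold (female) in the marmoset, 4.72-fold (male) and 1.48-fold (female) in the rat. The 2 genes are direct neighbours in the marmoset RefSeq annotation, with no gene between them.

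Outside the heart, the second site of Nppa in the rat was the brain. Rat brain libraries held 1.51 FPKM (male) and 1.48 FPKM (female), against 0.0436 and 0 FPKM in the kidneys and 0.159 and 0.318 FPKM in the livers. The brain values were above all 4 kidney and liver values and nearly equal to each other. Because the hearts dominate any mean that includes them, rat brain came out lower than heart, kidney and liver together (change of -1.46 ± 0.23, adjusted p = 0.00145; -0.44, adjusted p = 0.305, with a pseudocount of 0.1). With the heart columns left out, the brain value was 1.15 above kidney and liver; this is a description of the values just given, chosen after they were seen, and Nppa stays in that fit only through the brain columns. In the marmoset brain Nppa was at 0.262 FPKM (male) and 0.0224 FPKM (female), a range that overlaps those of liver and kidney. Nppb was not above 0.0991 FPKM in a brain library of either species.

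Nppc, the gene of C-type natriuretic peptide, had another pattern: brain was the somatic tissue in which it was highest. Marmoset brains held 2.57 FPKM (male) and 1.64 FPKM (female), while kidney and liver were listed at 0 and the hearts at 1.94 FPKM (male) and 0 (female). The rat brains held 4.95 and 5.18 FPKM, against 0 to 0.217 FPKM in heart, kidney and liver. Rat brain did not overlap any other somatic tissue, whereas in the marmoset the male heart fell inside the brain range. Brain passed in both species, by 1.36 ± 0.39 in the marmoset (adjusted p = 0.0304) and by 2.51 ± 0.13 in the rat (adjusted p = 8.03e-06). The marmoset call was lost when any 1 of its 6 brain, kidney or liver libraries was left out (highest adjusted p = 0.201), while the rat call was kept without any 1 heart, kidney or liver library; without a rat brain library, Nppc no longer reached 1 FPKM in 2 libraries and could not be fitted.

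The gonads were the other place where Nppc was present, and the species differed in which gonad. Rat ovary had 5.47 FPKM and rat testis 0.359 FPKM. Marmoset ovary had 0.323 FPKM and marmoset testis 4.03 FPKM. These are single columns, so no test was made. Among the 7 genes, only Nppc exceeded every somatic library in a gonad: it was above the highest of them by 0.50 on the log2(FPKM + 1) scale in marmoset testis and by 0.07 in rat ovary.

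None of the 7 genes was at least 1 log2 unit above all somatic libraries in any gonad. Over all genes, 2.42% met that condition in marmoset ovary, 9.46% in marmoset testis, 2.42% in rat ovary and 18.5% in rat testis. For the marmoset testis, the near-absence of the 2 germ cell markers stands beside each value. Sertoli and Leydig markers (2 of 5 in the table) summed there to 304 FPKM and to 122 FPKM in the marmoset ovary. Most of the testis sum was CYP17A1, at 277 FPKM, while SOX9 stood at 26.9 FPKM. The part of cell makeup in these values was not tested. In all these bulk samples, fewer cells of a type and less RNA per cell cannot be told apart.

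Corin was abundant in rat heart and split between liver and heart in the marmoset. The rat hearts held 14.0 FPKM (male) and 20.8 FPKM (female), against 0 to 0.0973 FPKM in kidney, liver and brain. Rat heart was higher by 4.13 ± 0.17 (adjusted p = 6.54e-06). It passed with any 1 kidney, liver or brain library left out; with 1 heart left out it reached 1 FPKM in only 1 library. The hearts stood far above the rest, and the next column was the rat testis with 4.38 FPKM. In the marmoset, the livers held 8.18 FPKM (male) and 12.7 FPKM (female), the hearts 10.5 FPKM (male) and 1.30 FPKM (female), and kidney and brain 0.242 to 0.761 FPKM.

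Marmoset liver was the tissue where Corin passed, by 2.29 ± 0.59 (adjusted p = 0.0244), and marmoset heart did not pass (0.80 ± 0.59, adjusted p = 0.357). The male heart lay inside the liver range and the female heart below it. The heart value was 1.96 without the female heart and -0.37 without the male heart, each from 1 heart and given without a test. The liver call was lost when any 1 brain, kidney or liver library was left out (2.00 to 2.59, highest adjusted p = 0.124) and without the brain columns (1.98, adjusted p = 0.103). With both hearts left out, the liver value was 2.88 above kidney and brain, a description in a fit that Corin enters only through the liver columns. Heart muscle markers of any chamber summed to 10.9 and 6.00 FPKM in the marmoset livers, against 8859 and 4970 FPKM in the hearts, and Nppa in these livers was 0.118 and 0 FPKM. In rat livers Corin was 0.0226 and 0.0427 FPKM. The 2 species were normalized in separate tables, and the difference between them was not tested.

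**Figure D2:**
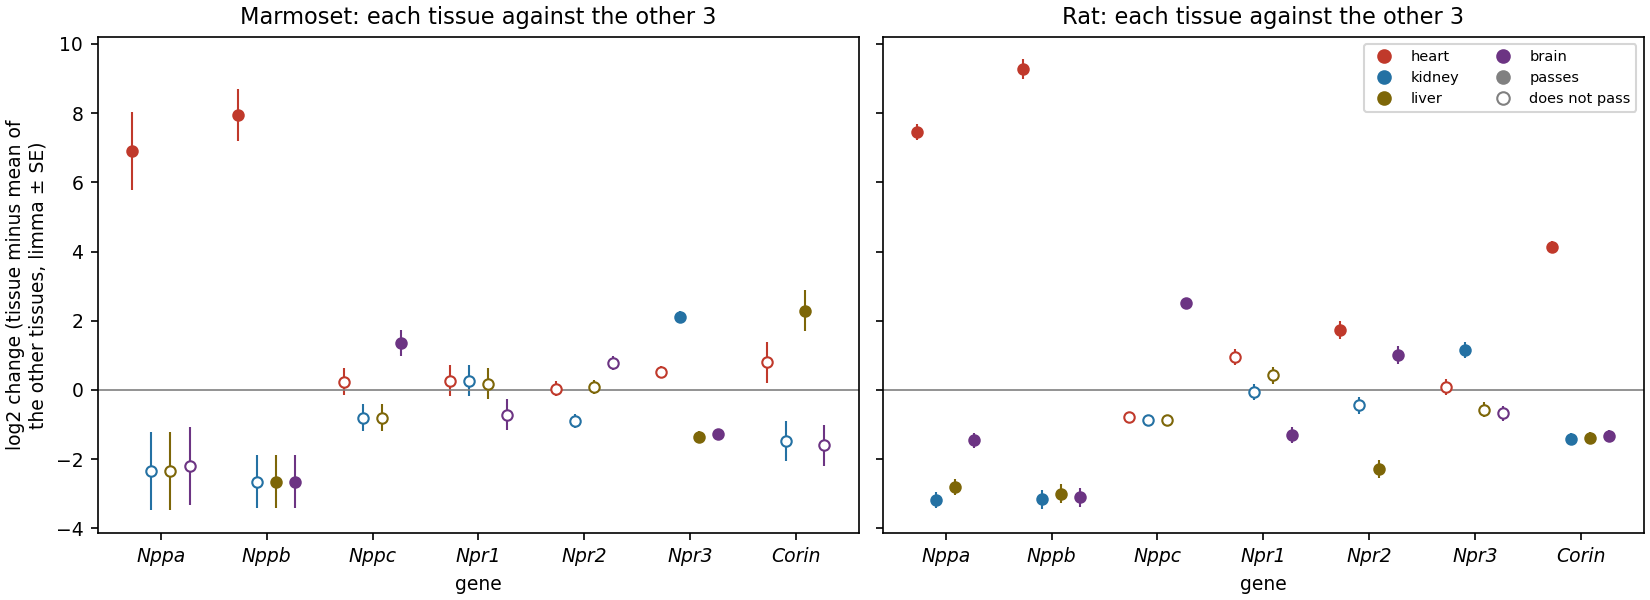
Log2 change of each gene in heart, kidney, liver and brain against the mean of the other 3 tissues (limma on log2(FPKM + 1), points with SE bars), for the marmoset (left) and the rat (right); filled points pass and open points do not. Nppa and Nppb pass for heart in both species, Nppc for brain and Npr3 for kidney, and Corin passes for liver in the marmoset and for heart in the rat; the size of the marmoset Nppb points depends on the pseudocount, since 6 of its 8 libraries are listed at 0.

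Npr1, the receptor of both heart hormones, was present in every marmoset column. Its FPKM was 22.6 and 10.4 in the male and female hearts, 23.7 and 9.88 in the kidneys, 19.1 and 11.2 in the livers, and 8.20 and 9.47 in the brains. Ovary had 6.30 FPKM and testis 8.90 FPKM. The ranges of kidney, heart and liver overlapped, the male library was the higher in all 3, and no tissue passed; the changes ran from -0.72 for brain to 0.27 for heart and kidney.

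In the rat Npr1 had more of an order. Hearts had 5.43 FPKM (male) and 7.81 FPKM (female), livers 4.55 and 4.87, kidneys 3.14 and 3.74, ovary 2.71, testis 2.38 and brains 0.865 and 1.91 FPKM. The tissues did not overlap and ran from heart down to brain. Brain was lower than the other tissues by -1.30 ± 0.24 (adjusted p = 0.00304), a call lost without the male brain (-0.98). Heart was at 0.95 ± 0.24 (adjusted p = 0.0151), just short of the change of 1 needed. Endothelial markers, all 7 of 7 in the rat table, summed to 240 and 226 FPKM in rat hearts and 18.8 and 19.9 FPKM in rat brains. Between these lay the kidneys at 102 and 79.9 FPKM, the ovary at 42.0 FPKM and the livers at 39.9 and 40.8 FPKM. The testis was lowest, at 4.35 FPKM. Heart was highest for both the markers and Npr1. Kidney stood above liver and testis below brain for the markers, the reverse of Npr1. The part of these markers in the Npr1 values was not tested.

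Npr2, the receptor of C-type natriuretic peptide, led in brain in the marmoset and in heart in the rat. Marmoset brains had 12.0 FPKM (male) and 11.8 FPKM (female), ovary 11.0, livers 7.76 and 8.09, hearts 8.74 and 6.81, testis 6.54 and kidneys 4.25 and 4.43 FPKM. Brain stood above and kidney below every other column, while liver and heart overlapped. The changes were 0.79 ± 0.20 for brain (adjusted p = 0.0227) and -0.91 ± 0.20 for kidney (adjusted p = 0.0232), both under the change of 1 needed; with quantile normalization both passed, at 1.12 and -1.13.

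In the rat, Npr2 stood at 8.40 FPKM (male) and 11.0 FPKM (female) in heart, 5.14 and 7.66 in brain, 1.74 and 3.30 in kidney and 0.211 and 0.450 FPKM in liver. Ovary had 8.21 FPKM, close to the hearts and brains, and testis 0.30 FPKM, close to the livers. Heart was higher by 1.72 ± 0.26 (adjusted p = 0.00163) and liver lower by -2.28 ± 0.26 (adjusted p = 0.000396). Brain was higher by 1.00 ± 0.26 (adjusted p = 0.0134), a call at the very edge of the change needed and lost without 1 of 4 libraries (the female brain, or the male heart, kidney or liver). Rat brain and ovary thus held both Nppc and its receptor gene at 4.95 FPKM or more.

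The brain columns of the rat differed in makeup. Cerebellar neuron markers summed to 813 FPKM in the male and 161 FPKM in the female rat brain, and astrocyte and oligodendrocyte markers to 547 and 2967 FPKM. Nppc differed little between these libraries, and Npr1 and Npr2 were higher in the female one. In the marmoset brains the sums were nearer, at 451 and 353 FPKM for cerebellar and 329 and 312 FPKM for glial markers. The part of regional makeup in the brain values was not tested.

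Npr3, the clearance receptor, was highest in kidney among the somatic tissues of both species. Marmoset kidneys had 4.52 FPKM (male) and 6.39 FPKM (female), hearts 1.97 and 1.62, livers 0 and 0.103, and brains 0.0923 and 0.0874 FPKM. The marmoset testis, at 5.07 FPKM, fell inside the kidney range, and the ovary had 1.17 FPKM. Kidney was higher by 2.12 ± 0.17 (adjusted p = 0.000525), liver lower by -1.36 ± 0.17 (adjusted p = 0.00156) and brain lower by -1.28 ± 0.17 (adjusted p = 0.00143). These 3 calls were kept with any 1 library left out.

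Rat kidneys had 2.47 FPKM (male) and 4.58 FPKM (female) of Npr3, against 1.37 and 1.69 in hearts, 1.08 and 0.540 in livers and 0.613 and 0.766 FPKM in brains. Testis had 1.54 FPKM and ovary 0.178 FPKM. Kidney was above all other columns and was higher by 1.16 ± 0.22 (adjusted p = 0.00709), a call lost without the female kidney (0.82, adjusted p = 0.0507). The part of cell makeup, such as the kidney tubule marker sums given above, in the Npr3 values was not tested.

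**Figure D3:**
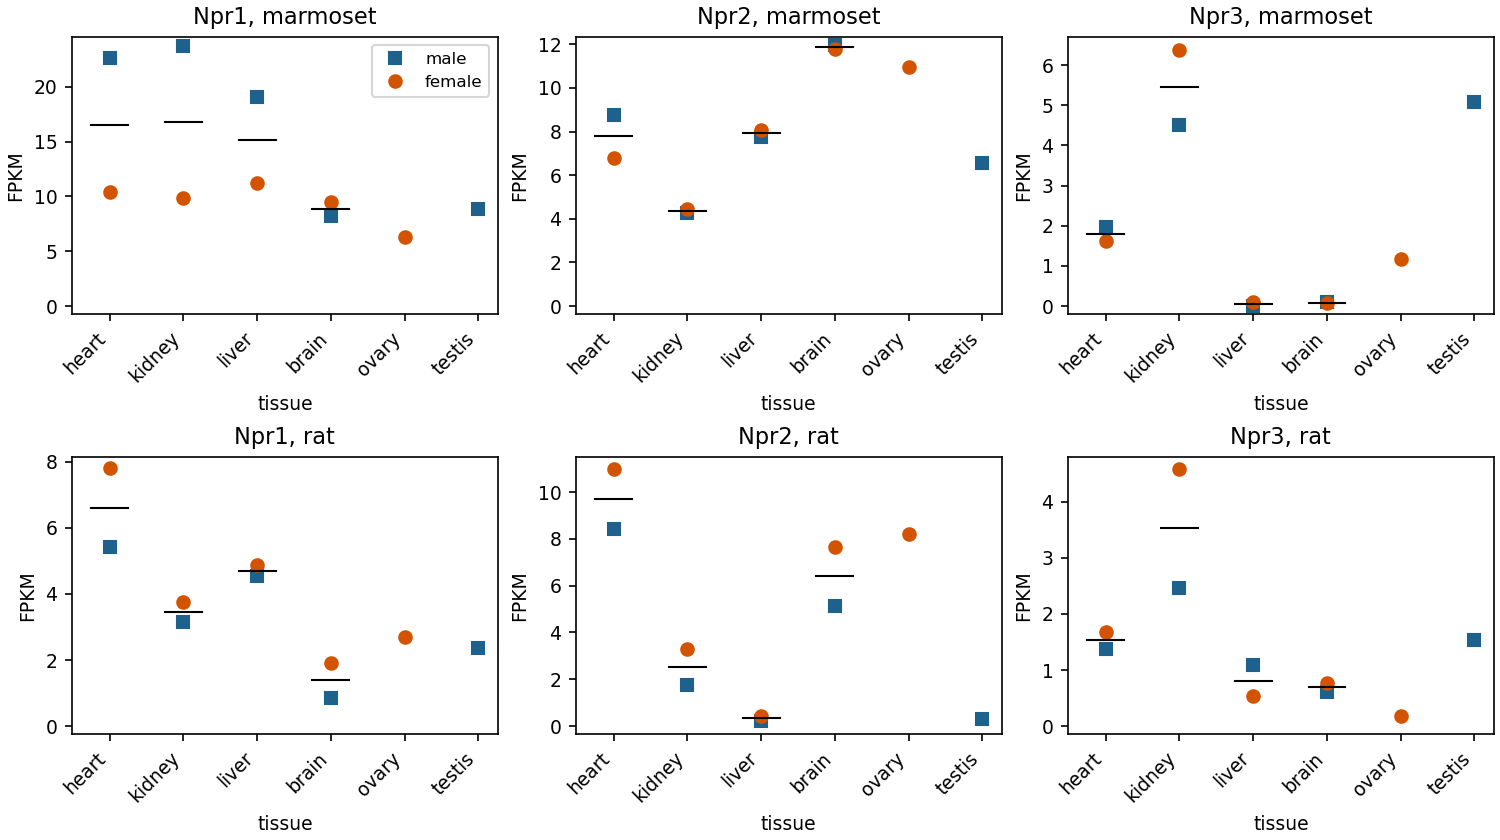
FPKM of Npr1, Npr2 and Npr3 (columns of panels) in each tissue of the marmoset (top) and the rat (bottom); squares are male and circles female libraries, and the line is the mean of the 2. Npr3 is highest in kidney among the somatic tissues in both species, Npr2 is highest in brain in the marmoset and in heart in the rat, and Npr1 overlaps between heart, kidney and liver in the marmoset.

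The mix of receptors differed between tissues. As a share of the summed FPKM of the 3 receptors, Npr2 made up 59.0% (male) and 55.2% (female) in marmoset brain and 77.7% and 74.2% in rat brain. Npr1 made up 71.1% and 57.8% in marmoset liver and 77.9% and 83.1% in rat liver. Npr1 was thus the main receptor transcript in liver and Npr2 in brain, in both species and both sexes.

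Hearts differed between the species: Npr1 was the larger share in marmoset hearts (67.8% and 55.2%), and Npr2 in rat hearts (55.3% and 53.6%). The kidney had the largest Npr3 share of the somatic tissues in each animal, 13.9% and 30.8% in the marmoset and 33.6% and 39.4% in the rat. In the ovary Npr2 was the largest share in both species, at 59.5% and 74.0%. The testis had a large Npr3 share, 24.7% in the marmoset and 36.5% in the rat. These shares are descriptions and were not tested.

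Counted over the 7 genes, all of which entered the fit of both species, marmoset heart had 2 higher and 0 lower, where 10.2% of all 15100 genes tested were called higher and 13.8% lower. Marmoset kidney had 1 higher and 0 lower (10.1% and 7.87% of all genes). Marmoset liver had 1 higher and 2 lower (14.7% and 14.3%), and marmoset brain 1 higher and 2 lower (15.7% and 21.4%). With the animal as a block, kidney had 1 higher and 1 lower, and brain 1 and 3. With 7 genes, 1 call is 1 in 7, so the counts for kidney, liver and brain lie near the share over all genes. The 2 heart calls, Nppa and Nppb, are of genes that entered the fit only through the hearts. That count adds no separate support.

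In the rat, heart had 4 higher and 0 lower, where 15.8% of all 14560 genes tested were called higher and 16.5% lower. Rat kidney had 1 higher and 3 lower (11.0% and 10.6%), rat liver 0 higher and 4 lower (18.0% and 18.6%), and rat brain 2 higher and 4 lower (17.3% and 25.7%). Of the 11 lower calls in rat kidney, liver and brain, 9 were Nppa, Nppb and Corin, each once per tissue, in contrasts that hold the heart on the other side. The median change of the 7 genes in heart was 0.52 in the marmoset and 1.72 in the rat, beside -0.17 and -0.11 over all genes. Rat Nppb and Corin, like marmoset Nppa and Nppb, entered the fit only through the hearts. Nothing is therefore read from the heart counts or medians. Leaving out the heart columns, Nppb in both species, Nppa in the marmoset and Corin in the rat no longer reached 1 FPKM in 2 libraries and left the fit.

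The male and female hearts of the marmoset differed most in the hormones and Corin. Male over female, the ratio was 29.9 for Nppa, 9.26 for Nppb, 8.07 for Corin, 2.17 for Npr1, 1.28 for Npr2 and 1.22 for Npr3, and Nppc was at 1.94 FPKM in the male and listed at 0 in the female. All 7 genes were higher in the male library, 5 of them by at least 1 on the log2(FPKM + 1) scale, where 24.1% of all genes (3646) were that much higher in the male heart and 1005 genes that much higher in the female heart. Summed over all genes, the male heart had 837796 FPKM and the female heart 427621 FPKM; the part of this difference in scale in the ratios was not tested. In the rat the ratios were 0.62 for Nppa, 1.97 for Nppb and 0.67 for Corin, and no gene differed by 1 log2 unit. The atrial markers MYL7 (3530 FPKM male, 414 FPKM female) and MYL4 (316 and 152 FPKM) were higher in the male marmoset heart. So were the ventricular marker IRX4 (3.56 and 1.28 FPKM) and the any-chamber gene TNNI3 (2830 and 796 FPKM). The any-chamber gene TNNT2 was near equal (678 and 685 FPKM), and the ventricular MYH7 was listed at 0 and 1044 FPKM. Sex, animal and the sampled region of the heart cannot be told apart with 1 library of each sex.

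**Figure D4:**
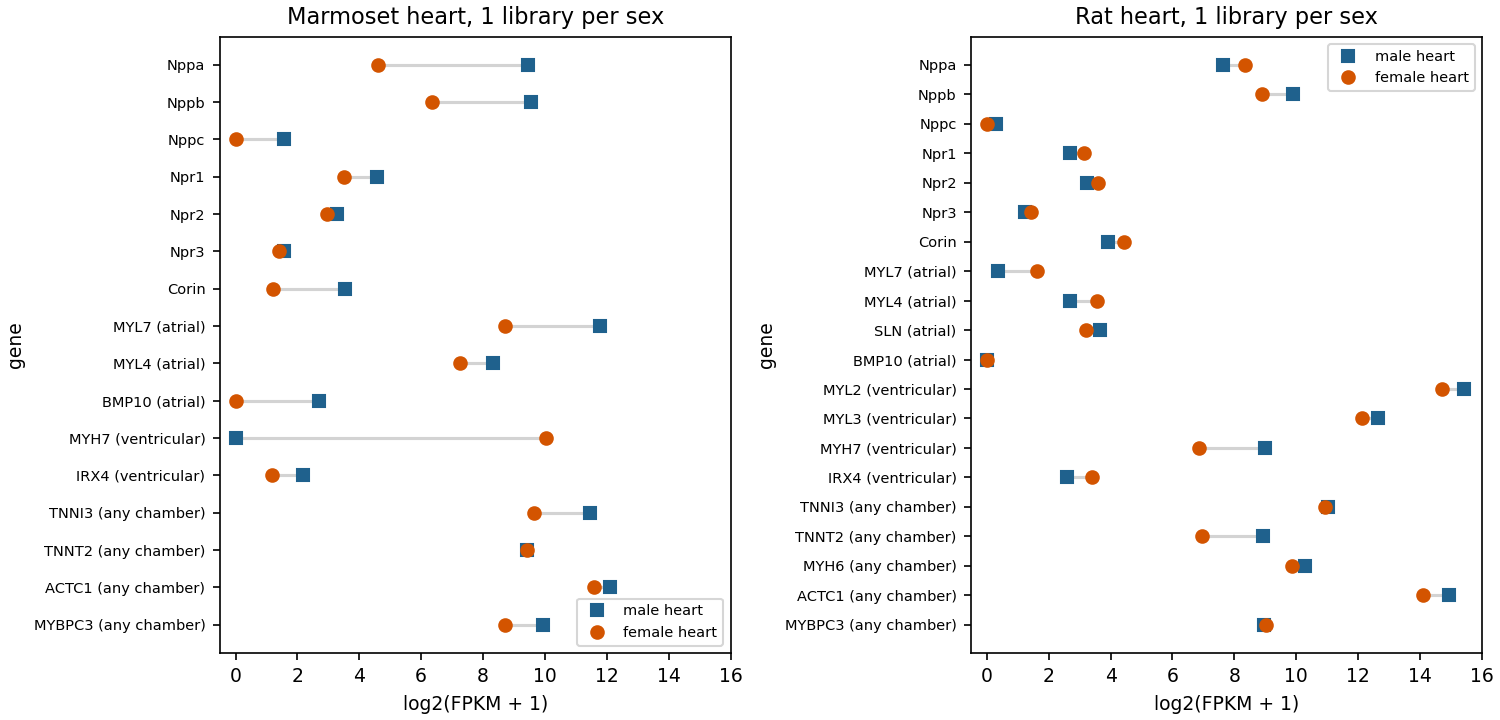
Log2(FPKM + 1) of the 7 genes and of listed heart muscle markers in the male (squares) and female (circles) heart library of the marmoset (left) and the rat (right), joined by a line per gene. In the marmoset Nppa, Nppb, Corin and the atrial markers are higher in the male heart. So are the ventricular marker IRX4 and the any-chamber genes TNNI3, ACTC1 and MYBPC3, but not TNNT2. MYH7 is listed at 0 in the male marmoset heart. The rat hearts lie close together for the 7 genes. A listed 0 need not mean absence, since albumin is listed at 0 in the livers.

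Processing and removal were described from a list of 6 genes: the proteases FURIN, PCSK5, PCSK6, MME and IDE, and OSTN, whose product osteocrin is a peptide that binds NPR3. PCSK6, a protease known from mice and human cells to activate corin, was highest in liver in the marmoset and in heart in the rat, as Corin was by its mean. It stood at 106 and 103 FPKM in male and female marmoset livers, against 6.14 and 8.11 FPKM in the hearts, and liver was higher by 4.54 ± 0.26 (adjusted p = 0.000111). In the rat it stood at 23.1 and 29.1 FPKM in hearts, against 5.83 and 14.5 FPKM in livers, and heart was higher by 2.36 ± 0.42 (adjusted p = 0.00358). FURIN, which cuts many precursors including that of B-type natriuretic peptide, was highest in liver in both species, at 852 and 475 FPKM in the marmoset and 62.8 and 61.4 FPKM in the rat.

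MME encodes neprilysin, an enzyme that breaks natriuretic peptides down. Kidney held 183 and 178 FPKM of it in the marmoset and 78.7 and 172 FPKM in the rat, and was higher by 5.25 ± 0.28 (adjusted p = 0.000156) and by 6.36 ± 0.33 (adjusted p = 2.22e-05). Outside the rat kidneys only the female brain reached 1 FPKM of it among the somatic libraries, at 1.17 FPKM. It thus entered the rat fit only with the kidneys. Hearts had 0.612 and 1.45 FPKM in the marmoset and 0.700 and 0.352 FPKM in the rat, so MME and Npr3, both on the removal side, were highest in kidney among the somatic tissues of each species. IDE, another degrading protease, was lower in rat brain (-1.51, adjusted p = 0.000816) and reached 65.6 FPKM in rat testis. Of the 5 list genes tested, marmoset heart had 0 higher and 1 lower, kidney 1 and 1, liver 3 and 0, and brain 0 and 3. In the rat the counts of 5 tested were 1 and 1 in heart, 1 and 1 in kidney, 1 and 1 in liver, and 0 and 3 in brain. Over all marmoset genes, 10.2% were higher and 13.8% lower in heart, 10.1% and 7.87% in kidney, 14.7% and 14.3% in liver, and 15.7% and 21.4% in brain. Over all rat genes the shares were 15.8% and 16.5% in heart, 11.0% and 10.6% in kidney, 18.0% and 18.6% in liver, and 17.3% and 25.7% in brain. With 5 genes, 1 call is 1 in 5, so nothing is read from counts of 1.

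Downstream of cyclic GMP, 10 genes were listed, among them kinases, phosphodiesterases and kinase targets. In marmoset heart 3 of 9 tested were higher and 2 lower (10.2% and 13.8% of all genes), and in rat heart 2 of 7 tested were higher and 1 lower (15.8% and 16.5% of all genes). PDE3A and PDE3B, related phosphodiesterases that cyclic GMP inhibits, went opposite ways in heart in both species. PDE3A was higher by 2.38 ± 0.48 in the marmoset (adjusted p = 0.0120) and by 2.10 ± 0.27 in the rat (adjusted p = 0.000869), with 9.83 and 37.3 FPKM in male and female marmoset hearts and 2.93 and 6.70 FPKM in rat hearts. In the rat it was not above 0.728 FPKM in another somatic library. It thus entered the rat fit only through the hearts, and its p-value there adds no separate support. PDE3B was lower, by -2.56 ± 0.48 (adjusted p = 0.00962) and -1.49 ± 0.30 (adjusted p = 0.00599).

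PDE5A, which breaks down cyclic GMP, was higher in marmoset heart, at 8.18 and 12.2 FPKM (2.03 ± 0.26, adjusted p = 0.00250). In the rat it stood at 0.121 and 0.189 FPKM in heart and did not reach the filter of 1 FPKM in 2 libraries. VASP, a target of the cyclic GMP-dependent kinase, was higher in rat heart (1.39 ± 0.23, adjusted p = 0.00265). Counts in the other tissues were 1 higher and 0 lower in kidney, 2 and 3 in liver and 3 and 0 in brain for the marmoset, and 1 and 1, 1 and 1, and 2 and 1 for the rat in the same tissues. The share of all genes called in 1 direction in these tissues ran from 7.87% to 21.4% in the marmoset and from 10.6% to 25.7% in the rat. The largest counts, 3 lower in marmoset liver and 3 higher in marmoset brain, stood beside 14.3% and 15.7%. With so few genes tested, no reading of the list is drawn from these counts.

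Other guanylyl cyclases and their ligands made another list of 10, with 5 tested in the marmoset and 6 in the rat. The subunits of the nitric oxide receptor, GUCY1A3 and GUCY1B3, were both higher in marmoset heart (1.19 ± 0.26, adjusted p = 0.0170, and 1.24 ± 0.28, adjusted p = 0.0191), and GUCY1B3 also in marmoset brain (2.21). In the rat neither passed in heart (Gucy1a3 0.09 and Gucy1b3 -0.26), and Gucy1b3 was higher in brain (2.84 ± 0.22, adjusted p = 4.69e-05). Nos3, the endothelial nitric oxide synthase, was higher in rat heart, at 22.1 and 16.2 FPKM (2.71 ± 0.23, adjusted p = 0.000165), beside the endothelial marker sums given above. Nos1, the neuronal form, was higher in rat brain (1.79 ± 0.12, adjusted p = 2.09e-05). Guca2a, the gene of guanylin, a peptide first known from the gut, had 80.5 and 23.5 FPKM in the male and female rat kidneys (5.06 ± 0.44, adjusted p = 0.000215). GUCY2D, a cyclase of the retina, was higher in marmoset kidney, at 4.41 and 1.26 FPKM (adjusted p = 0.0191). Rat Nos1, rat Guca2a and marmoset GUCY2D reached 1 FPKM in no other somatic tissue. They entered the fit only through the tissue named, so their p-values add no separate support.

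Across the list, heart had 2 higher and 0 lower in the marmoset and 1 and 1 in the rat. Kidney had 1 and 1 in the marmoset and 2 and 1 in the rat, liver 0 and 1 and 0 and 2, and brain 1 and 0 and 2 and 1, in the same order of species. The shares of all genes called ran from 7.87% to 25.7% over tissues and directions. The counts of 2 stood beside 10.2% higher in marmoset heart, 11.0% higher in rat kidney, 18.6% lower in rat liver and 17.3% higher in rat brain. With only 5 and 6 genes tested, no reading of the list is drawn from these counts.

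The genes whose levels ran most like each of the 7 were ranked by Pearson's r of log2(FPKM + 1) over the 10 columns of a species, which share animals and, for the hormones, turn on the 2 hearts. For rat Nppb these were Ckm, the muscle creatine kinase (r = 0.999), Nrap and Myoz2, and for rat Nppa they were Mettl11b (r = 0.998), Casq2, a calcium-binding protein of heart muscle (r = 0.994), and Trim72. For the marmoset they were LRRC14B, ASB10 and LSMEM2 for Nppa (r = 0.994 to 0.997) and KLHL30, KLHL38 and JPH2, a junction protein of heart muscle, for Nppb (r = 0.995 to 0.997).

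Corin had different companions in the 2 species. In the marmoset they were PRODH, which degrades proline (r = 0.925), ABCB4, a phospholipid pump of liver cells (r = 0.915), and DAPK2 (r = 0.911). In the rat they were Vdac3, a channel of the outer mitochondrial membrane (r = 0.994), RGD1564265 and Pdcd1lg2. Rat Nppc ran most like Slc6a7, a brain proline transporter (r = 0.994), Rab33a and Calb2, the gene of calretinin. Among the receptors the highest r was 0.959 for marmoset Npr1 (DNAJC4), 0.911 for marmoset Npr2 (ZNF667), 0.943 for marmoset Npr3 (C1orf49), 0.967 for rat Npr1 (Hspa9), 0.980 for rat Npr2 (Efnb2) and 0.943 for rat Npr3 (Pde4c).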

How the data were processed

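FPKM values were made by the authors and deposited as 1 normalized table per species, per the file headers. The submitters' processing notes name Cufflinks 2.0.0 and TopHat 1.4.0, and the genome build is not given in the sources used here. How the FPKM were normalized across tissues is not stated. The 7 genes and all lists were chosen with earlier results of these data known. Genes are members if the name equals the symbol or, in the marmoset, the Ensembl ID does; all are named whatever their values. Of the pathway lists, up to 3 genes per list and species are given in full, those with the largest heart change among genes passing in any tissue; other list genes named were chosen after their values were seen.

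Values were transformed as log2(FPKM + 1). Only genes reaching 1 FPKM in 2 or more of the 8 somatic libraries entered limma 3.58.1 (R 4.3.3; eBayes with trend), 1 fit per species, each tissue against the mean of the other 3, two-sided, Benjamini-Hochberg over all genes tested. The fit was tested on simulated data. Gonads, with 1 column each, and 2 hearts of different sex were compared without a test. Male and female columns of a species come from the same animals across tissues per the labels, and male-minus-female deviations correlated between tissues (r from 0.541 to 0.716 in the marmoset, from 0.143 to 0.506 in the rat). The main fit left this pairing out, and the block was kept as an alternative. The reason was that a brain column cannot be tied to 1 sample, although its sex gives the animal. SEs and p-values are from the fit without the block unless the block is named. With the block, marmoset Nppb passed as lower in kidney (adjusted p = 0.0203) and marmoset Corin as lower in brain (-1.61, adjusted p = 0.0408). Of the per-sample columns, 8, all in the wallaby table and 0 in every row, were not used. The elephant samples were not analysed here.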

Additional observations from a re-analysis of the deposited data

How the results depend on the processing

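Alternatives were a pseudocount of 0.1, no filter on low values, quantile normalization, the replicate block, the brain columns left out, each library left out in turn and, added after seeing the data, the heart columns left out and, for a left-out heart, a filter of 1 FPKM in 1 library. With the replicate block the genes passing numbered 4730, 3562, 5714 and 6922 for marmoset heart, kidney, liver and brain and 4953, 3352, 5637 and 6511 in the rat, within 1.5 times of the reported counts, and the block changed no other call of the 7 genes than the 2 given with the methods. Without the brain columns the passing genes fell to 1719 for marmoset kidney and 2494 for marmoset liver, with 2 fewer libraries. Genes above every somatic library were 676 in marmoset ovary with quantile normalization, 599 without the brain columns, and 579 in rat ovary with quantile normalization; the cause was not tested. With each library left out, the passing genes ranged from 2283 to 3488 for marmoset heart, 1116 to 2854 for kidney, 2731 to 4611 for liver, 1820 to 6055 for brain, and 3862 to 6454 for rat brain. Reversed changes were Nppc in marmoset heart (-0.54 to 1.02 over left-out libraries), Corin in marmoset heart (-0.37 to 1.96) and Nppa in rat brain (1.15 without the heart columns). Of 28 gene and tissue pairs per species, 9 passed in the marmoset and 4 of these lost the call in at least 1 left-out fit that they entered; in the rat 18 passed and 3 did so. Marmoset Nppa and Nppb and rat Nppb and Corin entered fits without 1 heart only under the looser filter, where the lone heart is assumed to vary like the other tissues. Rat Nppc in brain could not be fitted without a brain library. Quantile normalization moved the median change of all genes by 0.14 in marmoset heart, -0.14 in kidney, -0.19 in liver and 0.21 in brain, and reversed none of the 7 genes; 7 further changes then passed, among them Npr1 in rat heart (1.08) and Npr3 in rat brain (-1.06). With a pseudocount of 0.1, 8 further changes passed, among them Npr3 in marmoset heart (1.83, adjusted p = 0.0121), Npr2 in marmoset kidney (-1.03) and Npr1 in rat heart (1.20), and 1 was lost, Nppa in rat brain. Without the filter Nppb in marmoset liver no longer passed (adjusted p = 0.0539). With 2 libraries per tissue and unknown depth, differences between low FPKM values, and any effect of sex, cannot be resolved.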

Other observations

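The wallaby table, which names 3 of the 7 genes, had 1 male liver and 1 male testis library in use. Npr2 was at 11.6 FPKM in liver and 1.20 FPKM in testis, Npr3 at 0.527 FPKM in liver and 12.5 FPKM in testis, and Corin was listed at 0 in liver and at 0.164 FPKM in testis. Liver thus had more Npr2 and testis more Npr3, the same side as the higher Npr3 in testis than in liver of the marmoset (5.07 against 0 and 0.103 FPKM) and rat (1.54 against 1.08 and 0.540 FPKM).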
